A study of Mus musculus with 2254 samples.

Results

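The genes described here are 10 that act at the nuclear end of Notch signalling: the transcriptional repressors Hes1, Hes5, Hey1, Hey2 and Heyl, the feedback regulator Nrarp, the Deltex genes Dtx1 and Dtx3, and Rbpj and Maml2, which encode parts of the nuclear Notch complex. They were chosen by name, as 10 of the 30950 entries of one table of read counts from single brain cells of mice lacking Notch3 and of controls, and all 10 were found there. Cells were sorted into 384-well plates by fluorescence and each well was sequenced with Smart-seq2, which copies full-length polyadenylated RNA without molecular tags. The question put to these genes was in which cell classes they were read, whether they followed Notch3 from cell to cell, and whether they differed with the Notch3 label.

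The KO group held 1127 cells on 3 plates (043, 467 and 471) and the WT group 1127 cells on 3 plates (044, 468 and 469). Both groups came from adult C57BL/6 mice that carried SM22-Cre and Rosa26-stop-tdTomato, a reporter that turns cells red once Cre has been active under the smooth muscle promoter of SM22 (Tagln), and they differed in Notch3 status. The labels name no animal and give no sort gate or allele, so each genotype counts as 1 sample, plates are given with their spread as a description, and no p-value is given. Total counts per cell ran from 49473 to 763059 with a median of 291872, and 2252 of 2254 cells passed the filter of 50000 counts and 1000 genes. The labels give no batch. By plate number, 043 (KO) and 044 (WT) form a low-numbered pair, and values within that pair and within the 4 high-numbered plates are given where the contrast turns on them.

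Notch3 itself was read in both groups and 1 library stood apart. CPM are reads of a gene scaled to a common library total. Here, and where single genes are compared between KO and WT plates, the totals were adjusted between plates by TMM factors. Other CPM values, such as the levels by class, were not adjusted in this way. In smooth muscle-like cells Notch3 was at 75.8, 104 and 111 CPM on KO plates 043, 467 and 471, against 224, 703 and 1062 CPM on WT plates 044, 468 and 469. The plate labelled WT 044 thus lay closer to the KO plates than to the other WT plates. Differences without it are given for Nrarp in smooth muscle-like cells and for the fibroblast-like genes that met the rule described below. Reads of Notch3 remained in 74.4% of the KO cells of this class, against 88.3% of the WT cells, and which part of the gene the KO allele lacks is not given in the sources used here.

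When a Notch receptor is cut after ligand binding, its inner part enters the nucleus and joins the DNA-binding protein RBPJ and a Mastermind coactivator such as MAML2. Genes switched on by this complex include the Hes and Hey repressors and Nrarp, whose ankyrin-repeat protein binds the complex and limits it. Deltex proteins are ubiquitin ligases, and Dtx1 is known to bind the inner part of Notch. In brain vessels Notch3 is the receptor typical of smooth muscle cells and pericytes.

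The upstream sequences of 3 of these genes are shown because the comparisons below turn on Nrarp and Hey2 in mural cells and on Hes5 outside them. Each is the 250 bases before the RefSeq transcription start in GRCm38.p6, read 5′ to 3′ on the gene's strand. Capitals mark TGGGAA or its reverse complement TTCCCA, the core letters of the RBPJ site, searched on both strands. The windows are chr2:25180508-25180757 (plus strand) for Nrarp, chr4:154960673-154960922 (plus strand) for Hes5 and chr10:30842784-30843033 (minus strand) for Hey2.
Nrarp: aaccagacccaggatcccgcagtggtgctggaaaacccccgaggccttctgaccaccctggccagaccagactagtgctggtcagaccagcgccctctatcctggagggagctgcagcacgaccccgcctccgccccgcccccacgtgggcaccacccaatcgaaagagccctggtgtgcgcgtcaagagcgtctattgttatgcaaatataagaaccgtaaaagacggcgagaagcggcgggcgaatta
Hes5: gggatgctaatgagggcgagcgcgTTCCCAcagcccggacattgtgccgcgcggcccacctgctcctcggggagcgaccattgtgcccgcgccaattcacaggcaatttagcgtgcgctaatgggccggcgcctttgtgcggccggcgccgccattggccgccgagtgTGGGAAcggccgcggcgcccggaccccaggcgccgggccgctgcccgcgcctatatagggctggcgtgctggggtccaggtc
Hey2: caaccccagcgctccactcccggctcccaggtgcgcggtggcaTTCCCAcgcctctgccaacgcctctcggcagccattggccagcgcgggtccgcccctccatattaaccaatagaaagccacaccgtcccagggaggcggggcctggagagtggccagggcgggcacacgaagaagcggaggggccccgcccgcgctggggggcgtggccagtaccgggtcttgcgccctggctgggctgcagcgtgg
Hes5 held 2 matches, beginning 226 and 82 bases before the start, Hey2 held 1 match 207 bases before it, and Nrarp held none in this window. The same letters stood in 21.6% of all 32851 RefSeq windows of this length. A sequence was found for 6 of the 10 genes, in 8 windows, and 4 of the 6 genes held a match in at least 1 window. That count is by gene, while the 21.6% is by window, so the 2 are not on the same scale. Matches in letters are not binding sites, and nothing about RBPJ follows from a window without one.

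Cells were put into classes from the CPM of marker genes, which are none of the 10 genes. A cell needed 200 CPM of a marker, a threshold set after the marker distributions had been seen. Smooth muscle-like cells (Myh11, without Kcnj8, Cldn5, Dcn, Ccdc153, Aqp4 or C1qa) numbered 1052, of which 641 were KO and 411 WT. All 7 smooth muscle markers were read in them in both genotypes, summing to between 15504 and 16724 CPM per KO plate, against between 15511 and 18254 CPM per WT plate. The other classes were 156 fibroblast-like, 201 ependymal-like, 230 astrocyte-like, 157 endothelial-like, 39 macrophage or microglia-like and 29 pericyte-like cells, and 124 cells with both Myh11 and Kcnj8. Of the 29 pericyte-like cells, 17 also held Cldn5, and of the 157 endothelial-like cells, 81 also held the mural gene Rgs5, so both hold cells with markers of more than 1 class. The astrocyte-like, endothelial-like, pericyte-like and macrophage classes lay mostly on WT plates 468 and 469, and the order of classes below is that among 6 classes, the smooth muscle-like, pericyte-like, endothelial-like, astrocyte-like, ependymal-like and macrophage or microglia-like cells, by the mean of those 2 plates, with the range over them.

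Among the Hes and Hey genes, Heyl was highest in mural cells within these 6 classes. It was at 704 CPM in smooth muscle-like cells (697 to 711) and 548 CPM in pericyte-like cells (435 to 660). Astrocyte-like cells had 94.9 CPM (80.1 to 110). These 3 ranges did not overlap on plates 468 and 469, where the pericyte-like values came from 11 and 10 cells. Smooth muscle-like cells had 630 CPM on WT plate 044, inside the pericyte-like range. They had 623 and 639 CPM on KO plates 467 and 471, also inside it, and 810 CPM on KO plate 043, above it. The separation of smooth muscle-like from pericyte-like cells thus holds for plates 468 and 469 only. Endothelial-like, ependymal-like and macrophage-like cells each had under 1 CPM, with overlapping ranges. Heyl lies at chr4:123233556-123249875 on the plus strand of GRCm38, and its exons overlap no other gene's. Hes1 (chr16:30064384-30067796, plus strand), a repressor induced by Notch and by other signals, was also highest in smooth muscle-like cells, at 322 CPM (205 to 439), followed by pericyte-like cells at 158 CPM (147 to 169) and endothelial-like cells at 115 CPM (105 to 125), without overlap between neighbours. Astrocyte-like cells (63.8 CPM) and macrophage-like cells (56.9 CPM) had overlapping ranges, and ependymal-like cells were lowest at 37.2 CPM.

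Hey2 (chr10:30832359-30842801, minus strand), known from arterial vessels, had 255 CPM in smooth muscle-like cells (223 to 286), the highest of the 6 classes. It was at 78.4 CPM in pericyte-like cells (29.7 to 127), a range that overlapped that of astrocyte-like cells (30.0 CPM, 23.2 to 36.8), which in turn overlapped that of ependymal-like cells (21.7 CPM, 15.9 to 27.5), and at under 1 CPM in endothelial-like and macrophage-like cells. Hes5 (chr4:154960923-154962371, plus strand), a repressor known from neural progenitors and astrocytes, had the reverse layout. It reached 169 CPM in astrocyte-like cells (131 to 207), and 1.45 CPM or less in each of the other 5. Among smooth muscle-like cells Hes5 was read in 0 of 641 KO cells, which allows a share of up to 0.574% (Clopper-Pearson, 95%, counting error only, with cells treated as independent), and in 4 of 411 WT cells (0.973%), all on plates 468 and 469, which also hold the astrocyte-like cells. On plates 468 and 469, Hey1 (chr3:8663359-8667256, minus strand) was led by astrocyte-like cells at 118 CPM (116 to 121). Endothelial-like (95.3 CPM) and ependymal-like cells (91.0 CPM) followed, with overlapping ranges. Ependymal-like cells had 213 CPM on WT plate 044 and 116 to 173 CPM on KO plates, so astrocyte-like cells led on plates 468 and 469 only. Hey1 was low in pericyte-like (25.8 CPM) and smooth muscle-like cells (17.9 CPM), whose ranges also overlapped.

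Nrarp, at chr2:25180758-25183339 on the plus strand, was shared between the mural classes and astrocyte-like cells. Smooth muscle-like cells had 160 CPM (120 to 201), pericyte-like cells 127 CPM (117 to 137) and astrocyte-like cells 116 CPM (84.1 to 149), and these ranges overlapped in that order. Endothelial-like cells had 20.6 CPM, macrophage-like cells 4.85 CPM (0 to 9.69) and ependymal-like cells 0.231 CPM. The Nrarp exons overlap the antisense entry Gm38287, whose counts came to 87.9 per 100 Nrarp counts over all kept cells and which was never read in a cell without Nrarp (0 of 704 cells). Hes5 overlaps the antisense entry Gm20421 in the same way (28.8 counts per 100 of Hes5, 0 of 151 cells without Hes5). The strand setting of the counting is not given in the sources used here, so reads of a gene and of its antisense partner cannot be told apart.

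The Deltex genes differed from each other. Dtx1 (chr5:120680202-120711927, minus strand) was read in astrocyte-like cells at 194 CPM (174 to 215) and ependymal-like cells at 148 CPM (128 to 168), ranges that did not overlap, against 6.39 CPM in smooth muscle-like and none in pericyte-like cells. Dtx3 (chr10:127190378-127195728, minus strand) was read in all classes and was highest in pericyte-like cells at 663 CPM (615 to 711), with smooth muscle-like cells (272 CPM), astrocyte-like cells (265 CPM) and ependymal-like cells (231 CPM) overlapping neighbour by neighbour.

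The parts of the nuclear complex were not led by mural cells. Rbpj (chr5:53466152-53657362, plus strand) was highest in macrophage-like cells at 317 CPM (312 to 322), then pericyte-like cells at 189 CPM (155 to 224), and had 53.8 CPM in smooth muscle-like cells (44.6 to 63.1). Maml2 (chr9:13297957-13709388, plus strand) was highest in ependymal-like cells at 236 CPM (164 to 309), and all 6 classes, down to macrophage-like cells at 68.4 CPM, overlapped neighbour by neighbour. Per kilobase of exon, the scale on which different genes can be compared, the mean levels in WT smooth muscle-like cells over 3 plates were 150 CPM per kb for Hes1, 133 for Heyl, 86.9 for Dtx3, 56.2 for Nrarp, 55.3 for Hey2, 12.6 for Maml2 and 4.82 for Rbpj, while Hey1 (4.79), Dtx1 (0.867) and Hes5 (0.114) were low.

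**Figure D1:**
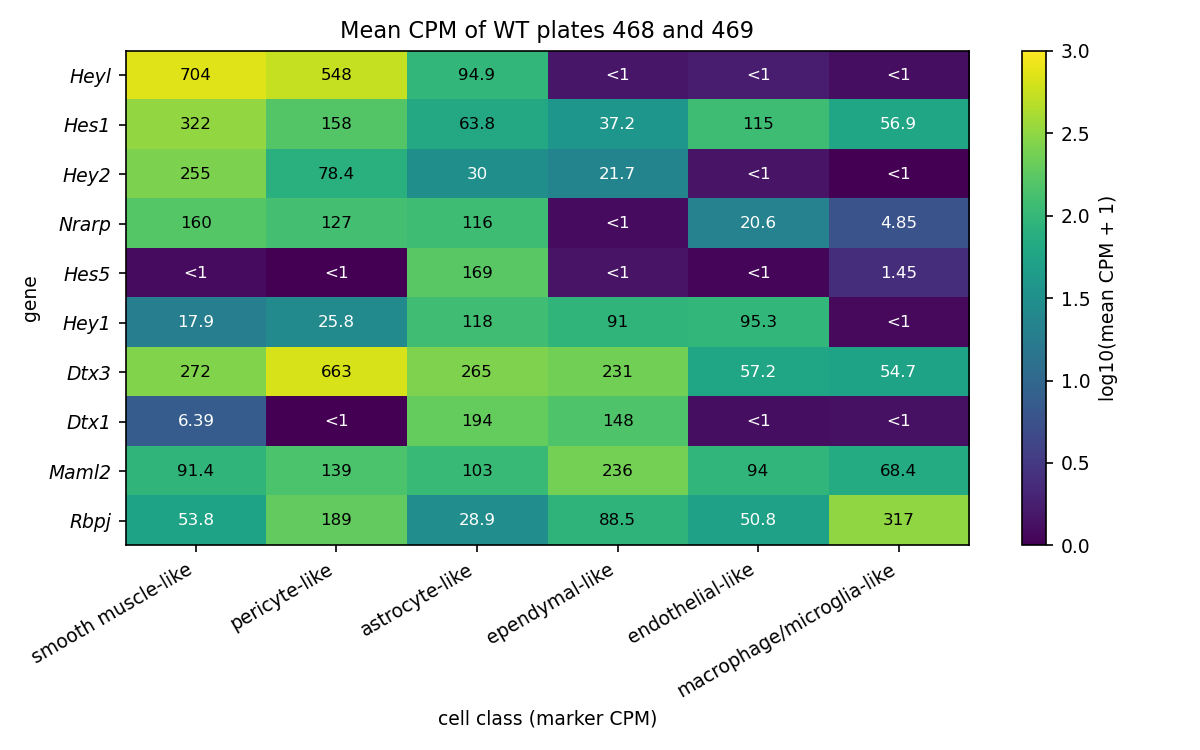
Mean CPM of the 10 genes (rows) in 6 cell classes (columns) over WT plates 468 and 469, coloured as log10(mean CPM + 1) and printed in each cell. Heyl, Hes1, Hey2 and Nrarp are high in smooth muscle-like cells (704, 322, 255 and 160 CPM), whereas Hes5 is under 1 CPM there and at 169 CPM in astrocyte-like cells.

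In smooth muscle-like cells 1 of the 10 genes was lower in KO than in WT by the rule used, and it was Nrarp. Counts were summed per plate and scaled by TMM, and a gene met the rule if it had a mean of 10 CPM and a read in 10% of cells in one genotype, a 2-fold difference of means on the log2(CPM + 1) scale, and plates of the genotypes that did not overlap. Of the 10 genes, 7 passed the filter on low values, and the other 3 (Hes5, Hey1 and Dtx1) were too low in these cells to be compared. Over all 9589 genes that passed it, percent_called was 2.62 (251 genes), with 1.83 higher and 0.793 lower in KO. Plates did not overlap for 1 of the 7 genes and for 8.36% of all genes measured. The KO minus WT difference had a median of 0.04 over the 7 genes and of 0.06 over all genes measured, on the log2 scale.

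Nrarp was at 66.2, 67.4 and 49.5 CPM on KO plates 043, 467 and 471, against 129, 110 and 191 CPM on WT plates 044, 468 and 469. All 3 KO plates lay below all 3 WT plates, with means of 61.0 ± 9.97 CPM in KO and 143 ± 42.2 CPM in WT (SD, n = 3 plates each) and a difference of -1.19 on the log2 scale. It was -0.95 between plates 043 and 044, -1.31 among the 4 high-numbered plates, and -1.25 without plate 044. Without plate 469 the difference was -0.97, just under the 2-fold limit, so the call rests on that plate. Plates that lie apart stay apart when 1 is left out, so this is no check of their order. Nrarp was read in 32.6% of KO cells (95% Clopper-Pearson interval 29.0 to 36.4) and 50.9% of WT cells (45.9 to 55.8), intervals that cover counting error only and treat cells as independent. The highest 10% of cells held between 60.4 and 72.6% of the Nrarp counts on KO plates, against between 34.5 and 55.3% on WT plates. The median cell had no Nrarp read on any plate but WT plate 469, where it had 150 CPM. The antisense entry Gm38287 shares exons with Nrarp and is no second observation of it.

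In these cells the summed markers of some other cell types lay apart between KO and WT plates, and those of most overlapped. The 6 pericyte markers, all read in both genotypes, summed to between 1294 and 1764 CPM on KO plates, against between 917 and 1196 CPM on WT plates. The 6 fibroblast markers, also all read, summed to between 308 and 330 CPM on KO plates, against between 220 and 296 CPM on WT plates. At trace levels, the 4 oligodendrocyte precursor markers summed to between 2.02 and 6.37 CPM on KO plates, against between 0.260 and 1.27 CPM on WT plates, and the 2 erythrocyte markers lay below 1 CPM on every plate. The part of these markers in the Nrarp difference was not tested. Without the 36 cells that held at least 50 CPM of another class's gate marker, the Nrarp difference was -1.17.

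The 3 repressors measured in these cells, Heyl, Hes1 and Hey2, overlapped between the genotypes. Heyl had 899, 599 and 612 CPM on KO plates 043, 467 and 471, against 708, 638 and 676 CPM on WT plates 044, 468 and 469 (difference 0.04). The KO values lay on both sides of the WT values, with plate 043 highest of all and the other KO plates lowest. Hes1 had 283, 315 and 353 CPM on KO plates, against 304, 188 and 418 CPM on WT plates (0.13). Hey2 had 291, 213 and 152 CPM on KO plates, against 283, 204 and 272 CPM on WT plates (-0.25). Both overlapped, and for Hes1 the WT plates alone spanned more than the KO plates. Differences of this size lie under the 2-fold limit of the rule.

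The complex and the Deltex ligase showed the same overlap. Rbpj had 66.2, 62.9 and 60.0 CPM on KO plates and 86.3, 40.8 and 60.0 CPM on WT plates (0.08). Maml2 had 106, 111 and 82.8 CPM on KO plates and 76.0, 70.7 and 100 CPM on WT plates (0.28). Dtx3 had 115, 220 and 223 CPM on KO plates and 142, 192 and 318 CPM on WT plates (-0.21), and in both genotypes the low-numbered plate was the lowest.

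**Figure D2:**
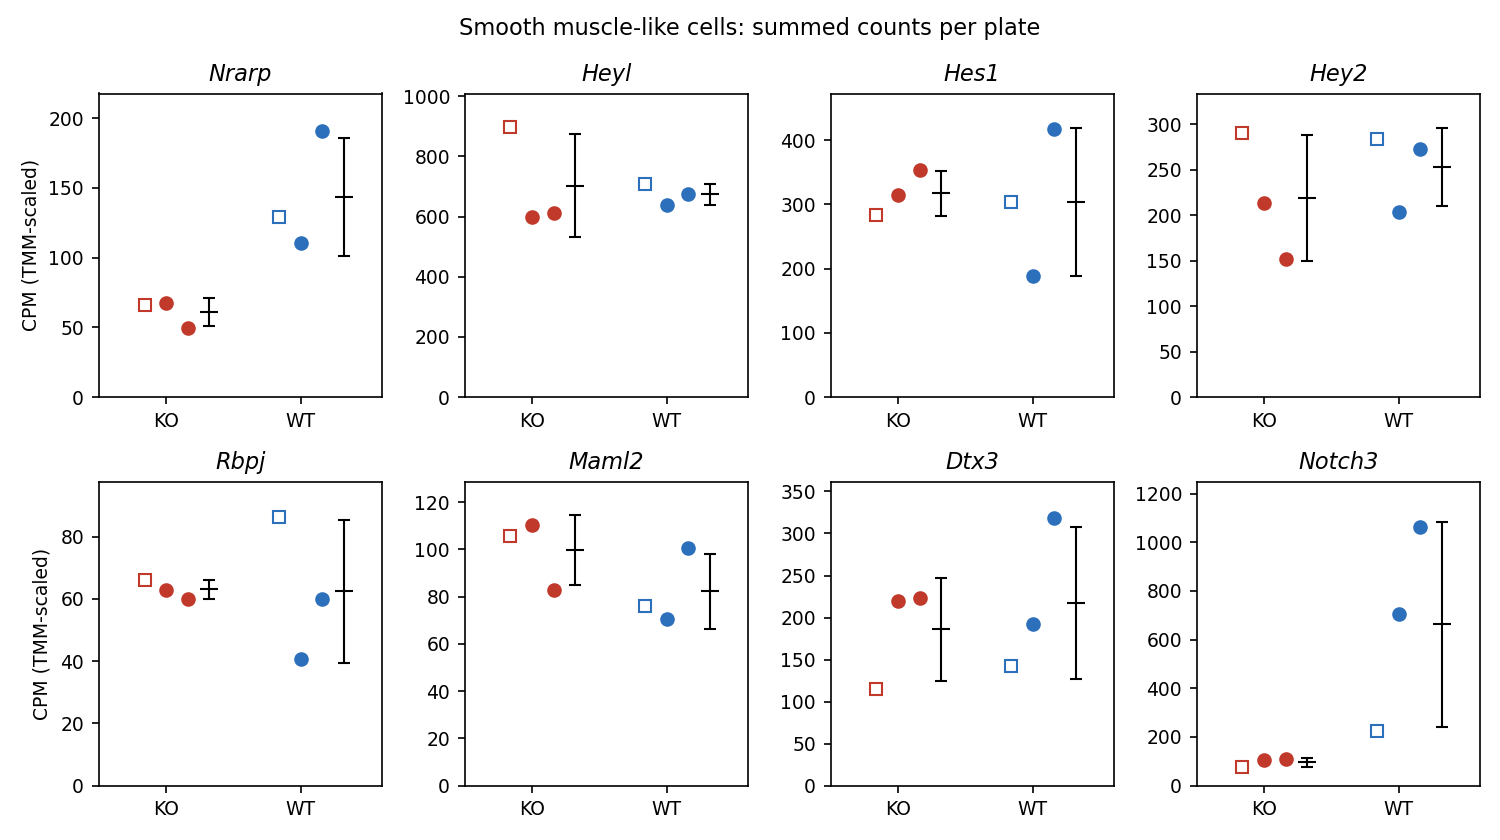
CPM of 7 genes and Notch3 in smooth muscle-like cells, 1 point per plate (counts summed over its cells, TMM-scaled), KO left and WT right. Open squares are plates 043 and 044, filled circles the high-numbered plates, and bars the mean and SD over 3 plates. Nrarp lies between 49.5 and 67.4 CPM on KO plates, against between 110 and 191 CPM on WT plates, while the other 6 genes overlap.

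Nrarp also varied along the smooth muscle cells themselves. Smooth muscle cells of arteries carry much Cnn1 (calponin, a contractile protein), and those nearer the capillaries carry more Rgs5, a regulator of G protein signalling typical of small-vessel mural cells. Within every plate the Spearman rho of Nrarp was positive with Rgs5 (0.23 to 0.36 on KO plates, 0.38 to 0.46 on WT plates) and negative with Cnn1 (-0.35 to -0.19 on KO plates, -0.41 to -0.19 on WT plates). The share of cells with at least 200 CPM of Rgs5 was 70.1 to 80.5% on KO plates and 64.7 to 75.6% on WT plates, and of Cnn1 30.7 to 43.0% on KO plates and 38.2 to 54.4% on WT plates. These splits were chosen after the values had been seen. Within them, the share of all genes with plates apart was not computed, so plates apart there are a description only.

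In cells with at least 200 CPM of Rgs5, Nrarp was at 92.1, 80.2 and 51.6 CPM on KO plates, against 160, 108 and 220 CPM on WT plates (-1.09), without overlap. In cells below that level it was at 11.9, 16.1 and 40.6 CPM on KO plates, against 36.3, 115 and 94.6 CPM on WT plates (-1.83), where KO plate 471 lay above WT plate 044. Cells with low Cnn1 gave 106, 91.4 and 63.7 CPM on KO plates and 191, 178 and 228 CPM on WT plates (-1.20), without overlap. Cells with high Cnn1 gave 19.2, 14.0 and 31.3 CPM on KO plates and 80.1, 20.2 and 139 CPM on WT plates (-1.54), with WT plate 468, which held only 13 such cells, inside the KO range.

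For Heyl the plate means were 712 CPM (KO) and 694 CPM (WT) with high Rgs5, and 660 CPM (KO) and 644 CPM (WT) with low Rgs5. With high Cnn1 they were 602 CPM (KO) and 606 CPM (WT), and with low Cnn1 778 CPM (KO) and 726 CPM (WT). The rho of Heyl with Cnn1 was negative on all 3 KO plates (-0.16 to -0.07) and ran from -0.33 to 0.15 on WT plates, and its rho with Rgs5 was of either sign on the WT plates. With high Cnn1, Maml2 had 97.2, 139 and 112 CPM on KO plates and 51.4, 29.6 and 65.9 CPM on WT plates (1.28). WT plate 468, the lowest, held only 13 such cells. With low Cnn1, Maml2 had 113, 97.8 and 60.2 CPM on KO plates and 107, 101 and 125 CPM on WT plates (-0.34). Maml2 was picked from all 10 genes in these groups of cells. The difference between these 2 contrasts was not tested.

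**Figure D3:**
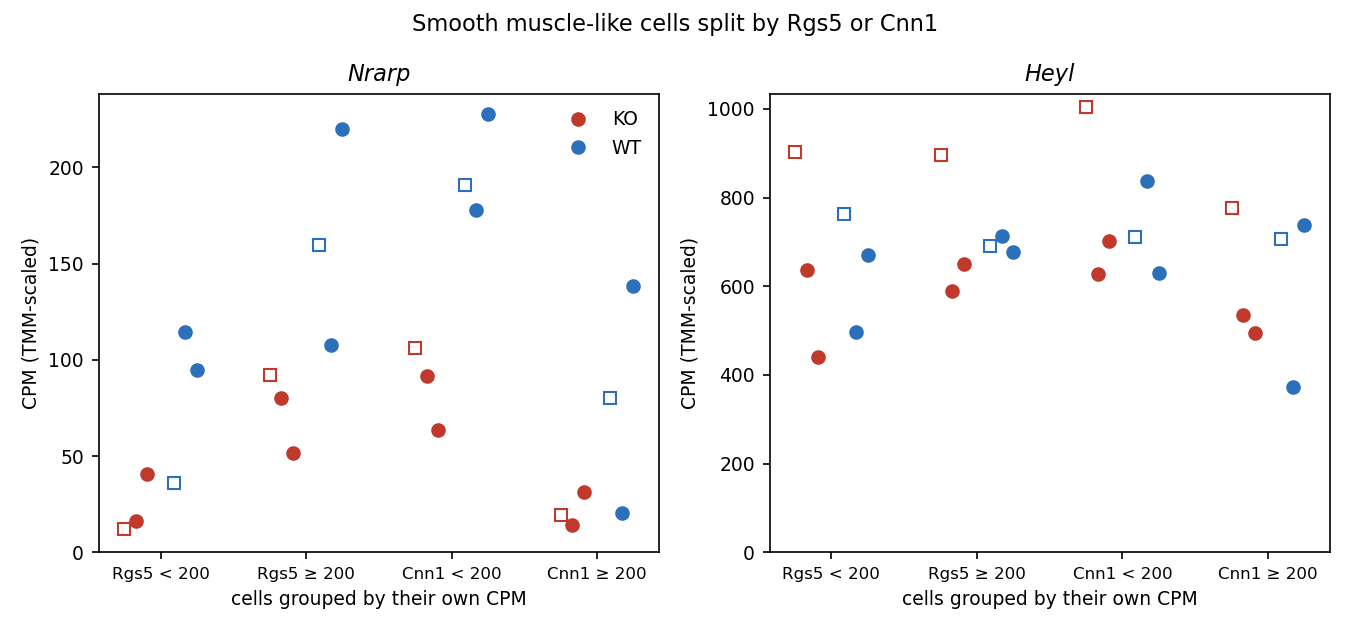
CPM of Nrarp (left) and Heyl (right) in smooth muscle-like cells grouped by whether the cell held 200 CPM of Rgs5 or of Cnn1, 1 point per plate, KO left of WT in each group. Open squares are plates 043 and 044. On KO plates Nrarp is lowest in the low-Rgs5 and high-Cnn1 groups (11.9 to 40.6 and 14.0 to 31.3 CPM). WT plates 044 (low Rgs5, 36.3 CPM) and 468 (high Cnn1, 20.2 CPM) lie inside these ranges. Heyl overlaps between genotypes in every group.

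Across single smooth muscle-like cells, Nrarp had the highest mean correlation with Notch3 of the 7 genes measured over the WT plates and over all 6 plates, and Dtx3 over the KO plates. Its Spearman rho with Notch3 was 0.28, -0.03 and 0.08 on KO plates 043, 467 and 471 (214, 176 and 251 cells) and 0.20, 0.58 and 0.30 on WT plates 044, 468 and 469 (320, 34 and 57 cells). All 3 WT plates and 2 of 3 KO plates were positive, and the plate ranges of the genotypes overlapped. Over the WT plates its mean rho of 0.36 ranked 6 among 7387 genes measured on each of them, and over the KO plates its mean rho of 0.11 ranked 152 among 8195 genes. Plate 468, with the highest rho, had the fewest cells. These are descriptions over cells that share a library and differ in depth. With each cell thinned to 50000 counts the mean rho was 0.30 over the WT plates and 0.10 over the KO plates.

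Rgs5, with which Nrarp also correlated, ranked 2 on the WT plates with a mean rho of 0.43. Among cells with at least 200 CPM of Rgs5, the rho of Nrarp with Notch3 was 0.27, -0.08 and 0.08 on KO plates and 0.09, 0.56 and 0.26 on WT plates. On plate 044, the WT plate with the most such cells (242), the value was close to that of KO plate 471. Among cells with low Cnn1 it was 0.30, -0.05 and 0.02 on KO plates and -0.003, 0.59 and 0.41 on WT plates (146, 21 and 34 cells). With high Cnn1 it was 0.09, 0.10 and 0.18 on KO plates, and 0.16 and 0.10 on WT plates 044 and 469. Below 200 CPM of Rgs5 it was 0.24, 0.10 and 0.10 on KO plates, and 0.20 on WT plate 044. The WT plates not named here had under 20 such cells. KO cells with a Notch3 read had more Nrarp than KO cells without one on plate 043 (81.7 against 10.2 CPM), plate 467 (73.2 against 60.4 CPM) and plate 471 (56.4 against 34.1 CPM), and the 2 sets of cells had similar median depth on each plate, for example 250921 and 268122 counts on plate 043.

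None of the 7 genes, Nrarp included, had a relation to Notch3 of the same sign on all 6 plates. Maml2 was positive on 5 of 6 plates, as was Nrarp, with mean rho of 0.04 and 0.23. Heyl gave 0.05, 0.09 and -0.11 on KO plates and 0.02, 0.01 and -0.06 on WT plates. Hes1 gave -0.15, 0.03 and 0.01 on KO plates and -0.06, -0.003 and -0.38 on WT plates, the lowest value being that of plate 469. Rbpj was weakly positive on all 3 KO plates (0.03 to 0.09) and negative on all 3 WT plates (-0.29 to -0.09), and Hey2 and Maml2 lay between -0.06 and 0.14 on all plates. Dtx3 gave 0.09, 0.16 and 0.12 on KO plates, where its mean of 0.12 ranked 82, ahead of Nrarp, against 0.15, -0.05 and -0.10 on WT plates. The 7 genes also did not go together from cell to cell: the mean rho over plates of the 21 pairs ran from -0.05 (Nrarp and Rbpj) to 0.10 (Heyl and Nrarp).

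**Figure D4:**
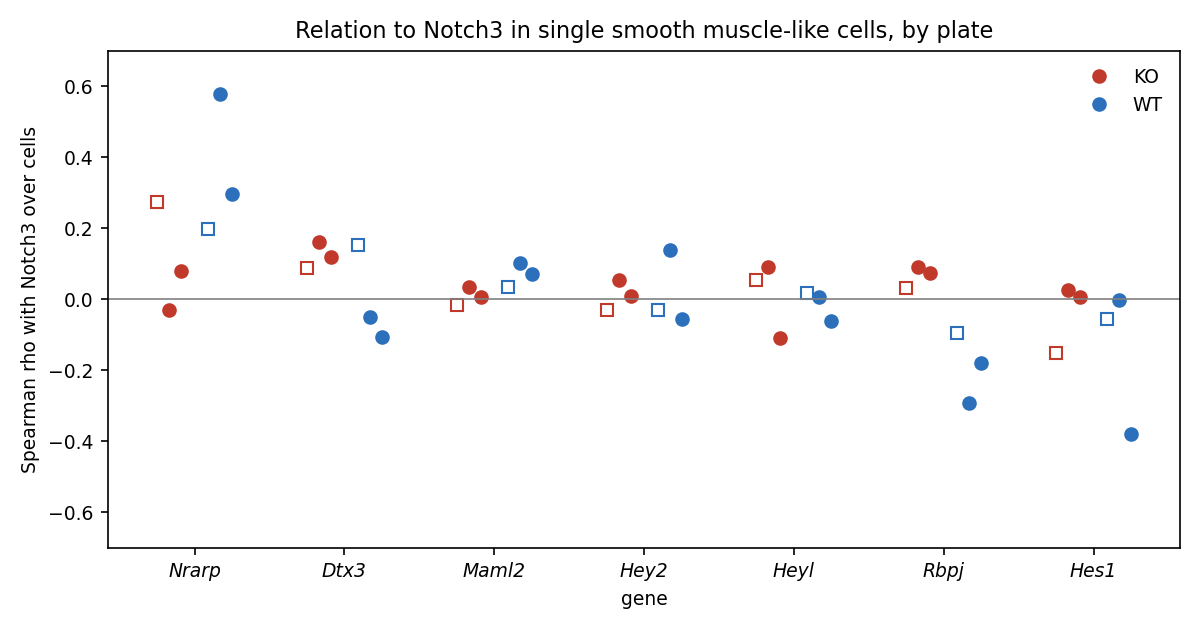
Spearman rho between each of 7 genes and Notch3 over single smooth muscle-like cells (vertical axis), 1 point per plate, KO left of WT for each gene; open squares are plates 043 and 044. Nrarp is positive on 5 of 6 plates and reaches 0.58 on WT plate 468, whereas Heyl stays between -0.11 and 0.09.

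In the cells with both Myh11 and Kcnj8, WT cells were enough on 1 plate (044, 14 cells), so WT has no spread. Nrarp was at 54.2, 84.9 and 120 CPM on KO plates 043, 467 and 471 and 157 CPM on WT plate 044 (-0.92), and Heyl was at 995, 499 and 533 CPM on KO plates, against 430 CPM there (0.58). Of 8 genes measured, 1 met the rule, Hey1 (0.448 CPM in KO, 24.1 CPM in WT), against a percent_called of 36.3 over all genes (21.1 higher and 15.2 lower in KO). Plates did not overlap for 4 of the 8 genes (Hey1, Hey2, Heyl and Nrarp), against 61.6% of all genes, and without plate 044 no comparison was left. Hey1 passed the filter on low values through the WT plate alone, on reads in 2 of 14 cells, so that it met the rule is no result about it. The pericyte markers summed in these cells to between 3636 and 4196 CPM on KO plates, against 2747 CPM on the WT plate, and their part was not tested.

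Fibroblast-like cells gave 4 of 8 measured genes by the rule, against a percent_called of 13.5 over 11120 genes (9.03 higher and 4.42 lower in KO; plates apart for 23.1%), from 119 KO cells on 3 plates and 28 WT cells on 2. Hes1 was lower, at 48.8, 45.6 and 58.8 CPM on KO plates and 77.5 and 143 CPM on WT plates 044 and 468 (-1.04). Maml2 was higher, at 71.5, 86.5 and 52.1 CPM on KO plates and 22.4 and 13.6 CPM on WT plates (1.91), and so was Rbpj, at 133, 163 and 116 CPM on KO plates and 79.9 and 51.2 CPM on WT plates (1.08). Hey2 was low in both, at 9.69, 10.2 and 21.4 CPM on KO plates and 0.741 and 0 CPM on WT plates, from 4 and 0 reads. It passed the filter on low values through the KO plates alone, and with so few WT reads the size of its difference (3.40) depends on the pseudocount.

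Leaving out a plate cannot make plates that lie apart overlap, so only the 2-fold limit and the filter could change these 4 calls. Without plate 044 or 468, WT was 1 plate. The rule was lost for Hes1 without plate 467 (-0.96) or 468 (-0.60), and for Rbpj without plate 467 (0.95) or 468 (0.76). For Hey2 it was lost without plate 471 (3.05, with the KO mean under 10 CPM). It was also lost for Hes1 with marker thresholds doubled (-0.74, with plates overlapping) or halved (-0.93), and for Rbpj with DESeq2 size factors (0.96) or doubled thresholds (0.72). Maml2 met it in each of these settings. Hey1, not among these calls, met the rule without plate 043. Without plate 044 the values were -1.48 for Hes1, 1.39 for Rbpj, 2.26 for Maml2 and 3.80 for Hey2, with WT at 0 for Hey2. The 7 smooth muscle markers, all read in both genotypes, summed in these cells to between 778 and 1506 CPM on KO plates, against between 136 and 511 CPM on WT plates. The 3 choroid plexus markers, all read too, summed to between 141 and 209 CPM on KO plates, against between 87.6 and 91.6 CPM on WT plates. Their part in these 4 differences was not tested. Heyl overlapped (88.9, 135 and 23.1 CPM on KO plates, 105 and 2.49 CPM on WT plates), and Nrarp was under 1 CPM on every plate.

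In ependymal-like cells, with 160 KO and 41 WT cells on 3 plates each, 0 of 7 measured genes met the rule, against a percent_called of 6.84 over all genes (5.24 higher and 1.6 lower in KO), and plates did not overlap for 11.8% of all genes. Hey1 was at 142 ± 39.0 CPM (KO) against 133 ± 76.9 CPM (WT), Dtx1 at 114 ± 8.46 CPM (KO) against 130 ± 31.7 CPM (WT), and Maml2 at 126 ± 9.27 CPM (KO) against 195 ± 91.3 CPM (WT), as mean and SD of 3 plates each. The largest difference was that of Hey2, at 9.03, 23.4 and 6.70 CPM on KO plates and 69.5, 26.7 and 15.4 CPM on WT plates (-1.36), where KO plate 467 lay above WT plate 469. The count of 0 depended on the plates: Hey2 met the rule without plate 467 or without plate 469, and Hes1 met it without plate 044. Pericyte-like, endothelial-like and astrocyte-like cells were too few on KO plates for a comparison.

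Of 72 further Notch pathway genes in 6 lists, 54 were measured in smooth muscle-like cells, 0 were higher and 1 was lower by the rule, and that was Notch3 (-2.51). By role, 1 of 3 measured receptors, 0 of 1 ligands, 0 of 12 genes of receptor processing and glycosylation, 0 of 11 of endocytosis and ubiquitin transfer, 0 of 19 coactivators and corepressors and 0 of 8 other Hes genes and targets met it. That is a share near the 2.62% of all genes measured, and the gene is the targeted one. The median difference over the 54 genes was -0.06, against 0.06 over all genes measured. In fibroblast-like cells 3 of 54 measured genes met the rule, all higher (Numbl, Mib1 and Dtx2, of endocytosis and ubiquitin transfer), against 13.5% of all genes. In ependymal-like cells 4 of 54 were higher and 2 lower, against 6.84% of all genes in either direction, and in the cells with Myh11 and Kcnj8 15 of 51 were higher and 8 lower, against 36.3%.

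Over the 34 profiles of a class on a plate, the genes whose log2(CPM + 1) followed each of the 10 most closely, among 17920 genes, were taken by Pearson r. These profiles share libraries, and r is a description. Heyl went with Gucy1b3 (0.94), Itga7 (0.92) and Gucy1a3 (0.91), 2 subunits of the nitric oxide receptor and an integrin. Nrarp went with its antisense entry Gm38287 (1.00), Abr (0.91) and Itga7 (0.88), and Hey2 with Itga7 (0.83), Dmd (0.83) and Lgalsl (0.82). Hes1 went with Trak2 (0.91), Prkar2a (0.90) and Utrn (0.89). Hes5 went with its antisense entry Gm20421 (0.99), AI849053 (0.94) and Gm37107 (0.94), and Dtx1 with Gm23134 (0.94), Srgap3 (0.93) and Nnat (0.93). The likeness was weaker for Hey1 (Gm12868, Slc2a1 and Mpzl1, 0.79 to 0.80), Dtx3 (Adgrl1, Nr2f1 and Mtcl1, 0.73 to 0.75), Rbpj (Hist1h1e, Tgfbi and Ctsz, 0.67 to 0.74) and Maml2 (Gfm1, Tubgcp2 and Satb1, 0.70 to 0.72), so Itga7 stood among the 3 closest genes of Heyl, Nrarp and Hey2.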

How the data were processed

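The measurements are read counts per gene and cell from Smart-seq2 libraries of 2254 sorted brain cells. The deposited counts are whole numbers per gene; reads were processed with TopHat2 2.1.1, SAMtools 0.1.18 and featureCounts of Subread 1.4.6-p5 on GRCm38 (mm10), per the submitters' processing notes. No molecular tags correct for amplification. The annotation and strand setting used in counting are not given in the sources used here; positions and exon lengths come from GENCODE M21, whose symbols matched 90.3% of the 30950 entries, so lengths per kilobase are approximate.

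Cells with at least 50000 counts and 1000 genes were kept. Classes came from marker CPM (1 gate gene and the class it defines are not reported here), counts were summed per class and plate (at least 10 cells), and TMM factors were computed with edgeR 4.0.16 (R 4.3.3), which ran no test. The size rule, a pseudocount of 1 CPM and all plates were used throughout; DESeq2 1.42.0 size factors were an alternative. Correlations needed 20 cells per plate. Values, shares and figures were made in Python 3.11.15 with pandas 2.3.3, scipy 1.17.1 and matplotlib 3.10.9. The size rule and the correlation code were tested on simulated data. No 2 cells had identical counts (0 pairs).

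The 10 genes, the pathway and marker lists, and the rule were chosen with earlier results of these data known. The genes named are the 10, Notch3, the 3 most alike genes of each, and list genes that met the rule; Rgs5 and Cnn1 were added after their values were seen. Since no animal is named, replicates are plates and may be technical.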

Additional observations from a re-analysis of the deposited data

Results flagged for a closer look

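Hey2 had opposite KO minus WT differences in 2 cell classes. Every KO plate lay below the WT plate in cells with both Myh11 and Kcnj8 (-0.89 on the log2 scale, 1 WT plate), and every KO plate lay above the WT plates in fibroblast-like cells (3.40, at 21.4 CPM or less). The 2 differences are -4.29 apart, and the difference between them was not tested. In fibroblast-like cells Hey2 passed the filter on low values through the KO plates alone. The WT plates held 4 and 0 reads, so the size of the gap depends on the pseudocount.

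Heyl had opposite differences in the 2 sets of plates in smooth muscle-like cells, at 0.34 between plates 043 (KO) and 044 (WT) and -0.12 among the 4 high-numbered plates, where both KO plates lay below both WT plates. The share of all genes whose plates lie apart among those 4 plates is not given, so that order is a description only. The gap of 0.46 was not tested, and the first set has 1 plate per genotype.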

How the results depend on the processing

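No paired analysis was possible because the labels give no number or animal shared between KO and WT plates. Nrarp was the 1 gene meeting the rule in smooth muscle-like cells, and the count was 0 without plate 469 (-0.97; range over plates left out 0 to 1), 0 with Leiden clusters built without Notch3 and the 10 genes (-0.99) and 0 with plates 043 and 044 only (-0.95); each value is just under the 2-fold limit. The Nrarp difference kept its sign under all alternatives, from -1.83 (cells with low Rgs5) to -0.95. Leaving out plates could not change the sign, since all KO plates lay below all WT plates. The median over the 7 genes ran from -0.19 to 0.08. In the other classes the count of 5 moved between 4 and 7. Of the single-gene differences, 213 of 220 moved by less than the plate SD, and the other 7 were those of Maml2, Nrarp and Hes5.

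The count over all genes, 251, was 871 without plate 044, 863 with plates 467, 468, 469 and 471 only, 449 with plates 043 and 044 only, 409 without plate 043, 396 without plate 469, 722 without the filter on low values and 164 with a pseudocount of 5 CPM. Limits are the 34 and 57 smooth muscle-like cells on WT plates 468 and 469, the WT plate 044 with low Notch3, and classes that lie on plates of 1 genotype.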
